A study of Mus musculus with 48 samples.

Results

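Liver spheroids are balls of primary liver cells that aggregate on a surface they cannot adhere to, and they are used as a stand-in for liver tissue in culture. RNA of 2 samples of mouse spheroids kept in vitro (spheroids 1 and 2) was compared here, across all genes, with RNA of 3 native livers (livers 1 to 3), to see what the cultured cells kept, lost and gained. These are 5 of the 16 samples and 15 of the 48 technical libraries of a series that also holds spheroids grafted into the eye with the iris around them, naïve irises and freshly isolated hepatocyte preparations. The table of counts holds 46517 genes, of which 12959 had enough reads in the spheroids or livers to be tested. Values of several samples are given in the order of their replicate numbers.

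Spheroids, livers and hepatocyte preparations carry the same labels, strain C57BL/6N and genotype WT Albino, and none received a treatment that the labels name. The strain list of the study gives albino mice of another C57BL/6 substrain, and adult animals of both sexes. The spheroids came from a hepatocyte-enriched fraction, made by perfusing the liver with collagenase and spinning the cells through Percoll, which removes most non-parenchymal cells. The cells aggregated in a plating medium with serum, insulin, transferrin, selenium and dexamethasone, a synthetic glucocorticoid. The study's protocol later replaces part of it, in repeated steps, with a serum-free medium that also holds insulin, transferrin, selenium and dexamethasone. How long the sequenced spheroids had been in culture is not given in the sources used here, and neither is how many spheroids or animals went into a sample. A difference from liver therefore holds isolation, culture, medium and the loss of other cells together, and these cannot be told apart. In such bulk RNA, fewer cells of a type and less RNA per cell cannot be told apart either.

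The hepatocyte is the main cell of the liver and does most of its work: it secretes albumin, clotting factors and complement into the blood, makes urea from ammonia, makes bile acids, stores glycogen, and breaks down drugs with cytochrome P450 enzymes. What a hepatocyte does depends on where it lies between the portal vein and the central vein, which is called zonation, and on hormones, growth hormone among them. The other cells of the liver are sinusoidal endothelial cells, Kupffer cells (the resident macrophages), stellate cells, cholangiocytes of the bile ducts, and cells of the blood. Hepatocytes taken out of the liver are known for losing their specialised functions in flat culture, and spheroid culture is meant to slow that loss.

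The spheroid samples had 3447643 and 3247327 counts, and the livers between 3523171 and 3871404. Between 18606 and 20779 genes were detected per sample. Defining markers of the hepatocyte were abundant in all of them, with albumin (Alb) at 3700 and 3883 transcripts scaled to a fixed total for length and depth (TPM) in the spheroids and at 3310, 3258 and 3097 TPM in the livers. The Y-linked gene Ddx3y was at 49.9 TPM or more in each of the 5 samples. Liver 1 stood apart from livers 2 and 3: Slco1a1 was at 10.2, 276 and 325 TPM in livers 1 to 3, Cyp2b9 at 307, 0.375 and 0 TPM, and H2-Aa at 388, 92.4 and 108 TPM. Spheroids 1 and 2 also differed, with Ccl2 at 248 and 36.8 TPM and Cyp4a14 at 22.2 and 601 TPM. Counts were made after removal of duplicate reads, which limits how many reads a base can start, so that differences of the most abundant genes are understated. Of the genes tested, 36 exceeded 1 count per base in a library.

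Of the 12959 genes, 1068 (8.24%) were higher in the spheroids and 1424 (11%) were lower. A gene was called when edgeR's quasi-likelihood test gave a Benjamini-Hochberg adjusted p under 0.05, over all genes tested, and the log2 fold change of spheroids over livers passed 1 in size, which is 2-fold. For 4299 genes (33.2%) the 95% interval of the log2 fold change lay wholly between -1 and 1, and such genes are called kept below. The 6168 genes left were neither called nor shown to be kept, and nothing is said of them from a p that missed the threshold. The median log2 fold change over all genes tested was 0.01. Groups of genes below come from 44 lists of 1086 symbols, of which 1084 were in the table and 961 were tested. Counts of a list are to be read beside the shares over all genes tested: 8.24% higher, 11% lower and 33.2% kept. With library sizes alone, the share of higher among called genes was 49.2% instead of 42.9%, and the median was 0.093. Across genes, log2 levels of the spheroid samples correlated with each other at r = 0.960, those of the livers at 0.945 to 0.976, and those of a spheroid sample and a liver at 0.833 to 0.869. Genes within a sample are not independent replicates, and these r describe the samples only. The groups did not overlap, with both spheroids above the 3 livers, in 33.6% of the genes and, with both below, in 25.9%.

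**Figure D1:**
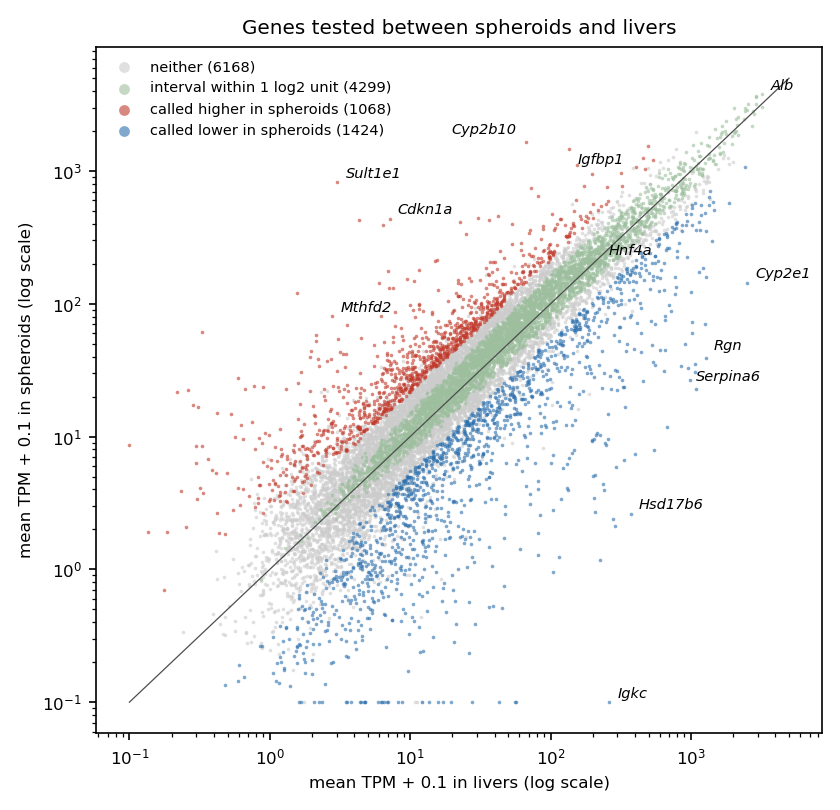
Mean TPM plus 0.1 of each of the 12959 genes tested, in the 3 livers (x axis) and the 2 spheroid samples (y axis), both on a log scale, with 1 point per gene coloured by call. The 4299 kept genes lie along the diagonal up to the highest levels, and the 1068 higher and 1424 lower genes lie on either side of it.

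The 10 genes with the largest rise in the spheroids, among called genes whose groups did not overlap and whose higher group reached a mean of 20 CPM, counts scaled to library size, held sulfotransferases, a cytochrome P450, and genes of the p53 and serine and folate pathways. Sult1e1 (chr5:87575969-87591594, minus strand), which sulfates estrogens, was at 625 and 1027 TPM in the spheroids and at 3.37, 1.7 and 3.72 TPM in the livers, a log2 fold change of 8.0 ± 0.38 (SE; edgeR adjusted p = 5.9e-05). Sult2a1 (chr7:13796246-13837409), which sulfates bile acids and steroids, was at 85.7 and 37.1 TPM against 0.683, 0 and 0 TPM. The livers held 1 count of Sult2a1 in all, and the ratio of 268 has an exact 95% counting interval of 47.5 to 10663. Cyp1a1 (chr9:57697613-57703822), the classic target of the aryl hydrocarbon receptor, was at 463 and 398 TPM against 3.46, 6.18 and 3.02 TPM (log2 fold change 6.54 ± 0.29, edgeR adjusted p = 5.9e-05). Every spheroid value of these genes stood above every liver value, which the rule that chose them required. Cdkn1a (chr17:29090979-29100722), which encodes the p53-induced cell cycle inhibitor p21, was at 479 and 398 TPM in the spheroids and 11.3, 4.75 and 5.04 TPM in the livers. Mthfd2 (chr6:83305691-83325908), a mitochondrial folate enzyme that normal liver barely uses, was at 95.1 and 66.7 TPM against 2.8, 1.82 and 3.4 TPM. For these the log2 fold changes were 5.84 ± 0.31 and 4.77 ± 0.27 (edgeR adjusted p = 0.0001 for each). The other genes of the 10 were S100g, Sprr1a, Ptgfr, D830032E09Rik and Eda2r. Sprr1a, a cornified envelope protein that also marks stressed cells, was at 700 and 84.9 TPM in the spheroids and 16.4, 0.873 and 1.64 TPM in the livers, so that spheroid 1 held most of it. Ptgfr, the receptor for prostaglandin F, was even between the spheroids, at 27.5 and 27.3 TPM, and at 0.514, 0.104 and 0.875 TPM in the livers.

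The 10 genes with the largest fall held genes of B cells and connective tissue and, from hepatocytes, enzymes of steroid, drug and fatty acid metabolism. The immunoglobulin genes Igkc and Ighm are made by B cells. No read of Igkc (chr6:70726435-70726966) was counted in the spheroids, against 382, 233 and 165 TPM in the livers, which is at least 121-fold lower with a floor of 3 counts over the group. Dpt, of connective tissue, was at 0 TPM in both spheroids and at 139, 18.8 and 13.4 TPM in the livers, at least 85.5-fold lower. Cfd, complement factor D of fat cells, was at 0 TPM in both and at 0.755, 53.4 and 112 TPM in the livers. The livers were far apart from each other in Dpt and Cfd and closer in Igkc. Among hepatocyte genes, Hsd17b6 (chr10:127990941-128000678), a steroid dehydrogenase, was at 2.18 and 2.89 TPM in the spheroids and 774, 150 and 190 TPM in the livers, with a log2 fold change of -7.25 ± 1.01 (edgeR adjusted p = 0.0026). Igfbp2 (chr1:72824503-72852474), an insulin-like growth factor binding protein, was at 2.88 and 1.74 TPM against 470, 207 and 163 TPM (-6.99 ± 0.63, edgeR adjusted p = 0.00066). Nat8 (chr6:85830388-85832082), an acetyltransferase, had 3 counts in the spheroids and 130, 295 and 255 TPM in the livers, a ratio of 224 with an exact counting interval of 76.6 to 1090. Cyp2c54 and Cyp4a12b, both cytochromes P450, were at 2.73 TPM or less in the spheroids and at 22.4 TPM or more in each liver; both have near-identical neighbours, and reads that map to several places were not counted. Zap70, known from T cells, was at 0 and 0.269 TPM in the spheroids and at 47.5, 14.1 and 17.4 TPM in the livers. It was also at 15.9, 10.4 and 23.1 TPM in the hepatocyte preparations, where Igkc was at 3.38 to 15.8 TPM.

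**Figure D2:**
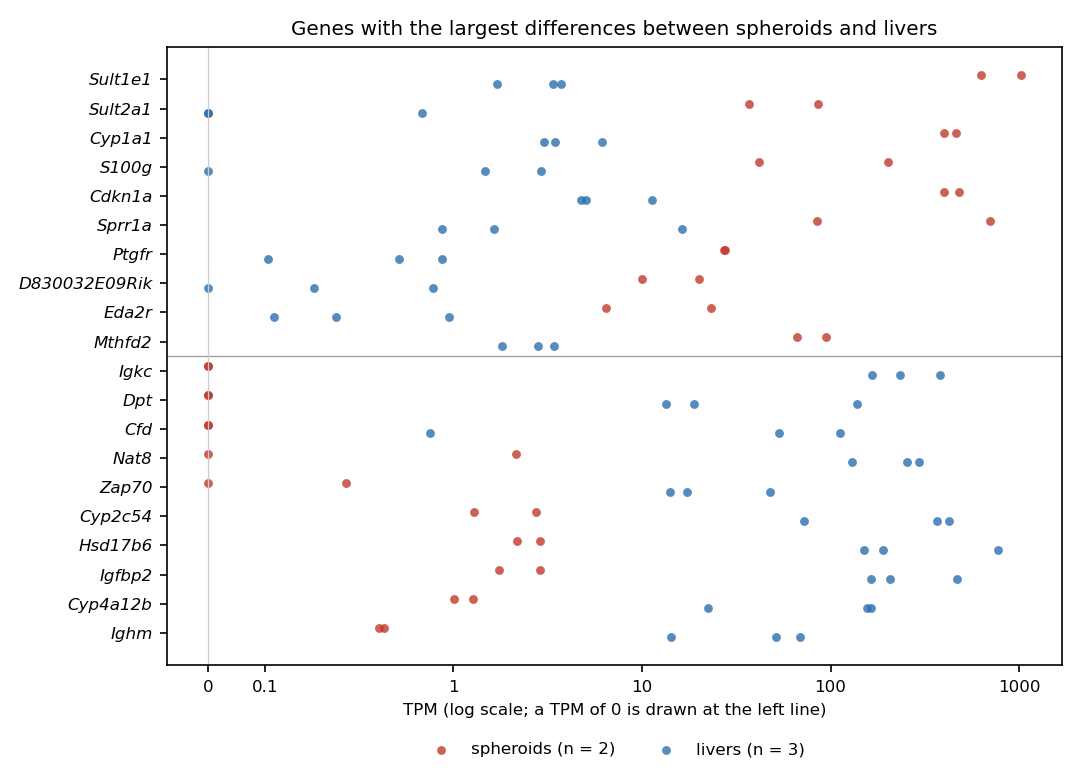
TPM (log scale) of the 10 genes with the largest rise and the 10 with the largest fall, with 1 point for each of the 2 spheroid samples and 3 livers, and a TPM of 0 drawn at the left line. Genes whose groups overlap were left out by the rule that chose these 20, so the points of the groups are separate in each of them. Cyp4a12b, at 1.27 and 1.01 TPM in the spheroids and at 22.4, 157 and 164 TPM in the livers, is an example of a wide spread among livers.

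The most abundant genes are those in which the limit on read starts understates differences, and 28 of the 36 genes over 1 count per base were kept. Of the 10 most abundant genes of the livers, mitochondrial genes left out, 9 were kept: Alb, Hpx, Ahsg, Apoa2, Gc, Apoa1 and Hp, all secreted plasma proteins, and the transcripts AY036118 and CT010467.1, whose exons overlap each other's. The overlap covers 100% of the exons of AY036118, and reads there were counted for both. These transcripts are thus not separate cases of a kept gene. For the 7 plasma proteins the log2 fold changes were -0.45 to 0.24, and -0.74 to 0.42 when the limit was undone. The latter are given without their intervals and do not say that each of the 7 was still kept. The exception was Cyp2e1 (chr7:140763739-140774975), the P450 that oxidises ethanol, at 152 and 137 TPM in the spheroids and 2110, 2698 and 2709 TPM in the livers. Cyp2e1 was lower with a log2 fold change of -4.25 ± 0.25 (edgeR adjusted p = 0.0001), and of -4.88 when the limit was undone. The 10 most abundant genes of the spheroids were all kept, among them Gm20425, 98.9% of whose exons overlap another gene's.

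Among transcription factors that hold hepatocyte identity, some were lower, some kept and some neither, and none was called higher. Of 20 such genes tested, 8 were lower, 6 kept (against 33.2% of all genes) and 0 higher, and the other 6 were neither called nor kept. Hnf4a, the master regulator of hepatocyte genes, was at 229 and 203 TPM in the spheroids and at 234, 211 and 233 TPM in the livers (log2 fold change -0.19, 95% interval -0.56 to 0.19), and the groups overlapped. The bile acid receptor Nr1h4 (278 and 342 against 263, 288 and 344 TPM) was kept as well. So were Prox1, Nr5a2, the xenobiotic receptor Nr1i2 and Ahr. Cebpa, which drives metabolic and secretory genes of the adult hepatocyte, was at 35.8 and 23.8 TPM in the spheroids and at 180, 222 and 176 TPM in the livers. Both spheroids lay far below every liver, at a log2 fold change of -2.83 ± 0.23 (edgeR adjusted p = 0.00036). Ppara, the fasting receptor that induces fat oxidation, was at 30.1 and 51.4 TPM against 104, 125 and 140 TPM. Nr0b2, the repressor that bile acids induce, was at 20.8 and 3.55 TPM against 49.9, 176 and 163 TPM. Rxra, Nr1i3, Onecut1, Tbx3 and the antisense transcript Hnf4aos made up the rest of the 8, and reads were counted without regard to strand. Of the exons of Nr1i3 and Onecut1, 74.9% and 52.8% overlap another gene's, so their values may hold reads of that gene.

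Plasma proteins were the best kept of the large hepatocyte groups. Of 30 genes tested, 21 (against 33.2% of all genes) were kept, 6 were lower and 0 higher, with a median log2 fold change of -0.20. With the limit on read starts undone, 20 were kept and 7 lower, with a median of -0.29. The number lower was 3 without liver 2 or without spheroid 1. Gc, the vitamin D binding protein, was at 3190 and 3210 TPM in the spheroids and 2612, 2529 and 2462 TPM in the livers. Transferrin (Trf), 63.5% of whose exons overlap another gene's, was at 2443 and 2466 TPM against 2161, 2084 and 2071 TPM. In both the spheroids stood a little above the livers, and both are so abundant that the limit on read starts understates their differences. Serpina6, the carrier of glucocorticoids in blood, was the exception in size, at 32.4 and 32.9 TPM against 1058, 809 and 972 TPM, which is 31.4-fold lower (log2 fold change -4.97 ± 0.23, edgeR adjusted p = 5.9e-05). Also lower were Fetub, Itih1, Hrg, Afm and Serpina1e, by log2 fold changes of -1.05 to -1.43, of which Serpina1e shares reads with near-identical copies.

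Complement and clotting factors held both kept and lower genes. Of 37 tested, 16 were kept, 11 lower and 0 higher (median -0.67). All 3 fibrinogen chains were kept, with Fgb at 1086 and 1101 TPM in the spheroids and 1070, 1089 and 1099 TPM in the livers. So were prothrombin (F2), F12, antithrombin (Serpinc1), complement factors B and I (Cfb, Cfi) and the inhibitor C4bp. Of the exons of Cfb and Serpinc1, 79.5% and 34.4% overlap another gene's. Genes of the membrane attack complex, which punctures target cells, were lower instead. C8a was at 33.5 and 36.1 TPM against 296, 604 and 774 TPM, a log2 fold change of -4.13 ± 0.45 (edgeR adjusted p = 0.00117). C9 was at 57.1 and 40.3 TPM against 446, 538 and 605 TPM (-3.58 ± 0.25, edgeR adjusted p = 0.00021). C8b, C8g and Hc (complement C5) were lower too, while C6 was at 101 and 212 TPM against 116, 296 and 329 TPM and was not called. Without liver 1, 15 genes of the group were lower.

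Promoter sequence is shown for genes of these 2 groups, in which 0 genes were higher, because the same letters stood before kept genes and before lower genes. HNF1 is a transcription factor that binds liver promoters, and the letters GTTAATNAT, searched on both strands of RefSeq promoter windows (250 bases before to 50 after a gene's start, GRCm38.p6), were in 0.590% of the 12375 windows of the 9643 genes tested that had one. They were in 3 of 29 windows of plasma protein genes (10.3%) and in 4 of 28 of complement and clotting genes (14.3%). Over all genes tested, they were in 1.04% of the windows of higher genes, 0.808% of lower genes and 0.723% of kept genes. Below are the stretches around the match, 5′ to 3′ on the gene's strand and ending before its start, with the match in capitals, on whichever strand it reads. The first 4 genes were kept, and the last 2, Afm (155 and 139 against 268, 293 and 305 TPM) and Hc (141 and 174 against 250, 309 and 342 TPM), were lower.
Alb, chr5:90460798-90460869, plus strand: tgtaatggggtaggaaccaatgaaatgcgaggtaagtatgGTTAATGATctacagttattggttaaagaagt
Gc, chr5:89457912-89457990, minus strand: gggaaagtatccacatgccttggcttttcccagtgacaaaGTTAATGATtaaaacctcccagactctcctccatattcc
Fga, chr3:83026067-83026145, plus strand: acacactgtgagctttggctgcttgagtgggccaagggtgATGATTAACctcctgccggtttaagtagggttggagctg
C4bp, chr1:130661644-130661722, minus strand: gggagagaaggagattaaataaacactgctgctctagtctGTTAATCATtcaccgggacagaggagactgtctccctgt
Afm, chr5:90518771-90518849, plus strand: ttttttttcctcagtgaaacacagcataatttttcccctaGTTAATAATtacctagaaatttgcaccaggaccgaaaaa
Hc, chr2:35061451-35061529, minus strand: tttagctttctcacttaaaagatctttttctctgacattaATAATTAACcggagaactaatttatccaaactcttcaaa
The same letters thus stood before genes that were kept and genes that were lower. F13b, not shown, has them too and was neither called nor kept.

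Acute phase proteins, which the liver makes under inflammatory cytokines, moved in both directions. Of 27 tested, 5 were higher, 6 lower and 6 kept (median 0.11). The serum amyloids Saa1 and Saa2, which are near-identical and share reads, were lower, with Saa1 at 84.2 and 55.9 TPM in the spheroids and 714, 1912 and 1141 TPM in the livers. Saa4, Orm1 and Orm2 were lower as well, as was the interleukin-6 receptor Il6ra. The metallothioneins Mt1 and Mt2, which bind zinc and copper, were higher. Mt2 was at 574 and 287 TPM against 46.4, 41.8 and 20.2 TPM (log2 fold change 3.43 ± 0.36, edgeR adjusted p = 0.00109). Lcn2, which withholds iron from bacteria, was higher at 490 and 381 TPM against 166, 159 and 33.7 TPM. Lbp, which carries bacterial lipopolysaccharide, and ceruloplasmin (Cp) completed the 5. Haptoglobin (Hp) and serum amyloid P (Apcs) were kept.

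Cytochromes P450, the enzymes of drug and steroid oxidation, were lower more often than higher and differed gene by gene. Of 37 listed genes of families 1 to 4 that were tested, 15 were lower, 2 higher and 7 kept, against 11% lower and 8.24% higher over all genes. Cyp1a1, called higher above, is not on this list and is not in its counts. Cyp2c23 was at 24.4 and 37.3 TPM in the spheroids and 616, 581 and 717 TPM in the livers (-4.48 ± 0.30, edgeR adjusted p = 0.00019). Cyp2f2, of the periportal zone, was at 184 and 187 TPM against 1239, 1121 and 1278 TPM (-2.83 ± 0.19, edgeR adjusted p = 0.00021). In contrast Cyp3a11, the main drug-oxidising P450 of mouse liver, was at 525 and 623 TPM against 612, 478 and 499 TPM and was kept, as were Cyp2c29, Cyp2d10 and Cyp3a13. Cyp2b10, the classic target of the receptor Nr1i3, was higher at 1487 and 1798 TPM against 169, 17.3 and 15 TPM, with a log2 fold change of 4.54 ± 0.92 (edgeR adjusted p = 0.0102). Liver 1 held far more Cyp2b10 than livers 2 and 3, yet stayed below both spheroids. Cyp2c38 was higher at 240 and 503 TPM against 149, 56.2 and 118 TPM. Cyp1a2 was at 375 and 582 TPM against 437, 1033 and 871 TPM and was not called, although the related Cyp1a1 was among the largest rises. Several Cyp2c and Cyp4a12 genes are near-identical, and their split is uncertain. Without liver 1, 19 were lower and 5 higher.

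Among enzymes that conjugate or hydrolyse drugs and hormones, several carboxylesterases were lower. Of 49 listed genes tested, 17 were lower, 16 kept and 1 higher (median -0.68), and 9 were kept without spheroid 2. The list does not hold the sulfotransferases Sult1e1 and Sult2a1, both called higher above. Ces1f was at 6.71 and 9.06 TPM in the spheroids and 366, 596 and 666 TPM in the livers (-6.23 ± 0.41, edgeR adjusted p = 0.00019). Ces3a was at 27.8 and 25.1 TPM against 644, 1149 and 1161 TPM (-5.35 ± 0.37, edgeR adjusted p = 0.00021). Carboxylesterases hydrolyse ester drugs and lipids, and Ces1d, Ces2a and Ces3b were lower too, while Ces1c and Ces2e were not called. Reads shared among Ces copies were left out of the counts. Of the glucuronosyltransferases, Ugt3a1 (2.56 and 5.43 against 73.1, 126 and 194 TPM), Ugt2a3, Ugt2b1 and Ugt2b38 were lower. Ugt2b5, Ugt2b34 and Ugt2b36 were kept, the last at 708 and 943 TPM against 758, 811 and 917 TPM. Glutathione transferase Gstm1, the sulfotransferase Sult1a1 and epoxide hydrolase (Ephx1) were kept. Sult1d1 was the 1 listed gene that was higher, at 662 and 889 TPM against 226, 128 and 162 TPM (2.07 ± 0.26, edgeR adjusted p = 0.00198).

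Bile acid synthesis genes were called in 4 of 15 tested, against 19.2% of all genes: 3 were lower (Akr1c6, Amacr and Slc27a5) and 1 was higher, with 3 kept and a median of -0.80. Without spheroid 2, 7 were lower and the median was -1.40. Cyp7a1, the rate-limiting enzyme of the classic pathway, was at 22.6 and 94.5 TPM in the spheroids and 212, 61.7 and 179 TPM in the livers, and the overlapping groups gave no call. Cyp39a1, which hydroxylates an oxysterol on the way to bile acids, was higher at 609 and 679 TPM against 129, 43.8 and 69.5 TPM (2.89 ± 0.37, edgeR adjusted p = 0.00202).

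Transporters of the sinusoidal and canalicular membranes were lower in 15 of 31 tested, with 2 higher and 3 kept. Slco1b2, which takes up bile acids and statins, was at 12.3 and 128 TPM in the spheroids and 405, 580 and 666 TPM in the livers (-3.03 ± 0.85, edgeR adjusted p = 0.0306), and the spheroids were far apart. On the canalicular side, the bile salt pump Abcb11 was lower at 89.1 and 113 TPM against 294, 207 and 207 TPM, and so were Abcc2 and Abcg8. The phospholipid pump Abcb4 was at 87.8 and 174 TPM against 91, 69.8 and 84.1 TPM and was not called. The main bile acid importer Slc10a1 was at 596 and 1176 TPM against 1070, 1473 and 1350 TPM and was not called either. The glucose transporter Slc2a2 was kept, and Slc17a4 and Slc22a27 were higher, the latter at 84.4 and 223 TPM against 24.9, 1.64 and 1.53 TPM.

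Nitrogen metabolism was among the groups with the most losses. Of 8 urea cycle genes tested, 5 were lower and 2 kept, with 3 lower without spheroid 1. Ornithine transcarbamylase (Otc) was at 90.2 and 68.7 TPM in the spheroids and 406, 323 and 384 TPM in the livers (-2.35 ± 0.20, edgeR adjusted p = 0.00046), and Ass1, Nags, Slc25a15 and Slc25a13 were lower as well. The cycle's first and last enzymes were kept, with Cps1 at 900 and 1216 TPM against 1531, 883 and 1073 TPM and Arg1 at 1713 and 2254 TPM against 1904, 1613 and 1512 TPM. Amino acid catabolism had 22 of 44 genes lower, 9 kept and 0 higher. The number kept ranged from 0 without spheroid 2 to 14 without spheroid 1, and was 2 without liver 2 and 3 without liver 3. Agxt, which detoxifies glyoxylate, was at 8.06 and 15.2 TPM against 979, 506 and 539 TPM (-5.96 ± 0.45, edgeR adjusted p = 0.00031). Glutaminase 2 (Gls2) was at 12.7 and 8.34 TPM against 360, 144 and 139 TPM (-4.46 ± 0.49, edgeR adjusted p = 0.00117). Urocanase (Uroc1), of histidine breakdown, was at 25.8 and 7.42 TPM against 460, 252 and 305 TPM. In each of these both spheroids were below the lowest liver. Tdo2, which opens the ring of tryptophan, was kept at 571 and 861 TPM against 885, 680 and 801 TPM.

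Of 22 genes of gluconeogenesis and glycogen tested, 10 were kept, 5 lower and 3 higher (median 0.21). The number kept was 3 without liver 2, 5 without liver 3 or without spheroid 1, and 6 with the limit on read starts undone. The number lower was 3 without liver 2, spheroid 1 or spheroid 2. Glucose-6-phosphatase (G6pc), which releases free glucose, was kept at 371 and 662 TPM in the spheroids against 611, 623 and 446 TPM in the livers. Pck1, the gatekeeper of gluconeogenesis, was lower at 91.6 and 254 TPM against 1659, 700 and 1065 TPM (-2.79 ± 0.53, edgeR adjusted p = 0.00817), as was pyruvate carboxylase (Pcx). The glycogen branching enzyme Gbe1 was higher at 294 and 404 TPM against 101, 163 and 152 TPM (1.21 ± 0.28, edgeR adjusted p = 0.0154), and so was Ugp2, which makes UDP-glucose for glycogen. The call of Ugp2 was lost without liver 1 and that of both without spheroid 2. Without liver 1, 1 gene was higher and 5 were lower. Of 14 glycolytic isoforms used outside liver, only Pkm was called, higher at 159 and 84.8 TPM against 67.8, 41.7 and 37.5 TPM.

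Lipid genes showed no single direction. Of 28 genes of fat synthesis and storage tested, 6 were lower, 1 higher and 4 kept, and the number lower was 1 without spheroid 1 and 10 without liver 1. The livers themselves were spread (Fasn at 156, 418 and 229 TPM, with 201 and 126 TPM in the spheroids). The lipogenic regulator Srebf1 was lower at 79.1 and 54 TPM against 143, 176 and 165 TPM. The fatty acid transporter Cd36 was higher at 459 and 459 TPM against 243, 100 and 142 TPM (1.4 ± 0.31, edgeR adjusted p = 0.014). Cholesterol synthesis had 10 of 25 genes kept, 2 lower (Tm7sf2 and Insig1) and 0 higher. Over all genes, 33.2% were kept and 11% lower. Among 36 PPARα targets and genes of fatty acid oxidation, 12 were kept, 4 lower and 4 higher, with a median of -0.48, and the kept share was close to that of all genes. Without spheroid 2, 12 were lower, 2 higher and 4 kept, with a median of -0.91, and without spheroid 1 the median was -0.04. Acaa1b, Acsl1 and Acot3 were among those lower, and Pdk4, Fgf21, Acot2 and Angptl4 were higher.

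Zonated genes were lower at both ends of the lobule. Of 27 pericentral genes tested, 18 were lower, 1 was kept and 0 higher (median -2.74). Of 28 periportal genes, 13 were lower, 4 were kept and 0 higher (median -1.09). Pericentral identity in the liver is set by Wnt signals from the endothelium of the central vein. Several genes that Wnt induces were lower in the spheroids, and the part of Wnt signals in these values was not tested. Glutamine synthetase (Glul) was at 81.9 and 137 TPM in the spheroids and 205, 520 and 463 TPM in the livers (-1.97 ± 0.45, edgeR adjusted p = 0.0156). Slc1a2, a glutamate transporter, was at 0.81 and 0.49 TPM against 27.3, 56.4 and 56 TPM (-6.28 ± 0.49, edgeR adjusted p = 0.00033). The Wnt feedback inhibitor Notum was at 0.631 and 0.334 TPM against 23.7, 22.2 and 16.2 TPM. Lgr5, a receptor for R-spondins, had 1 count in the spheroids and 2.31, 2.74 and 2.12 TPM in the livers, a ratio of 64.6 with an exact counting interval of 11.3 to 2575. Axin2 and Znrf3, further feedback genes of the pathway, were lower as well, while Rnf43 was at 5.91 and 4.42 TPM against 6.48, 8.05 and 10.7 TPM and was not called. Rgn and Oat, enzymes near the central vein, were lower at 36 and 42.1 against 866, 1489 and 1463 TPM for Rgn and 40.6 and 59 against 808, 909 and 995 TPM for Oat. The endothelial ligand Wnt2 was at 0 TPM in both spheroids and at 3.4, 4.99 and 11.7 TPM in the livers, at least 13.5-fold lower, and Rspo3 was lower too. Among periportal genes, Pigr, which carries immunoglobulin A into bile, was at 38.7 and 28.6 TPM against 871, 796 and 879 TPM (-4.79 ± 0.22, edgeR adjusted p = 5.9e-05). Aldh1b1 was at 9.92 and 1.75 TPM against 636, 130 and 114 TPM, with liver 1 far above the others. Arg1, Ftcd, Sdsl and Apoa4 were the 4 that were kept.

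**Figure D3:**
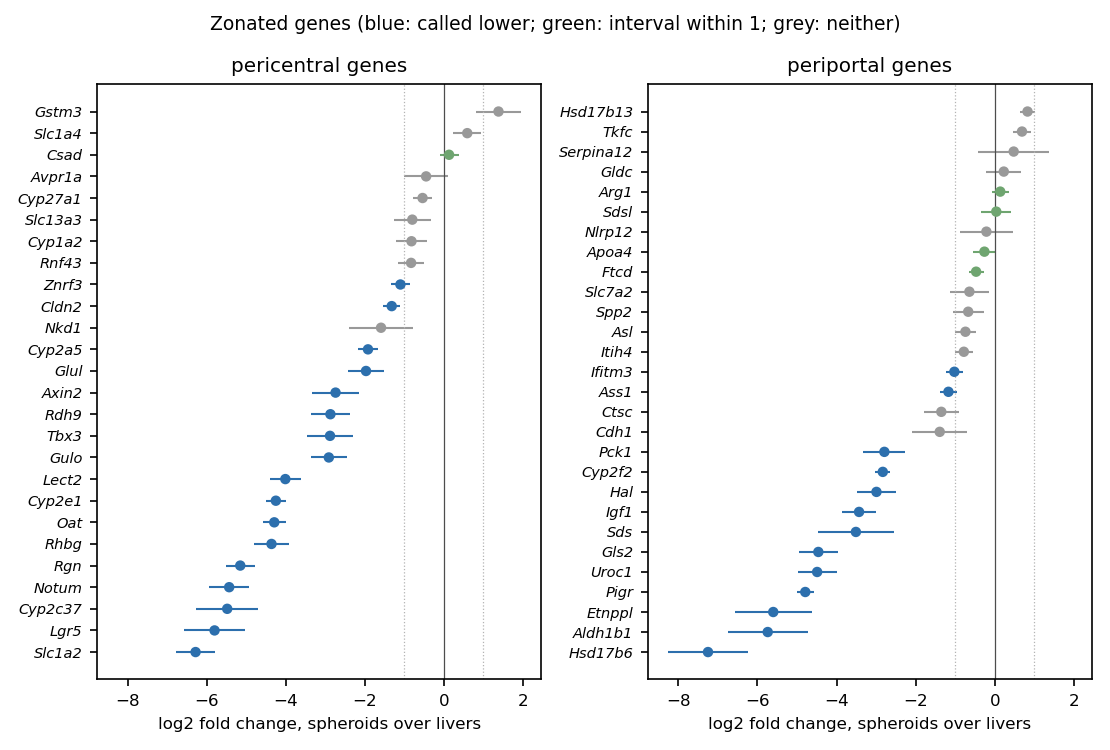
Fitted log2 fold change of spheroids over livers (point) with its standard error (bar, to either side), for each pericentral gene tested (left) and each periportal gene tested (right), coloured by call, with 1 pericentral gene that was called lower left out of the plot. The medians are -2.74 and -1.09, 18 of the 27 pericentral and 13 of the 28 periportal genes were called lower, and none was called higher.

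Genes under growth hormone and of sex-biased expression were lower in 15 of 31 tested, with 1 higher and 2 kept. Growth hormone acts on the hepatocyte through its receptor Ghr and induces Igf1, the main growth factor that liver releases. Ghr was at 59.7 and 82.9 TPM in the spheroids and 112, 168 and 169 TPM in the livers (-1.18 ± 0.29, edgeR adjusted p = 0.0185). Igf1 was at 12.8 and 33.1 TPM against 216, 217 and 262 TPM (-3.43 ± 0.44, edgeR adjusted p = 0.00199). Its carrier subunit Igfals was at 11.9 and 6.48 TPM against 176, 161 and 255 TPM, and the feedback inhibitor Socs2 at 1.28 and 1.1 TPM against 11.3, 8.27 and 13.7 TPM. All 4 had both spheroids below the lowest liver. The estrogen receptor Esr1 was lower, at 1.17 and 0.825 TPM against 13.2, 10.3 and 8.78 TPM (-3.54 ± 0.28, edgeR adjusted p = 0.00036). Genes known as male-biased, such as Elovl3 (9.16 and 9.7 against 37.3, 371 and 366 TPM) and Hsd3b5 (3.44 and 5.2 against 2.7, 401 and 300 TPM), were called lower although liver 1 was itself low, for Hsd3b5 below both spheroids. Female-biased Cyp2a4 was at 70.8 and 57.7 TPM in the spheroids and 248, 1.64 and 0.384 TPM in the livers, and was not called with a log2 fold change of -0.45, which turned to 5.78 without liver 1. Without liver 1, 20 genes of this group were lower and 4 higher. Igfbp1, which insulin represses and stress induces, was the 1 higher gene, at 1456 and 1458 TPM against 315, 50.3 and 42.8 TPM (3.34 ± 0.74, edgeR adjusted p = 0.0139).

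Of 22 clock genes tested, 9 were lower, 1 higher and 3 kept, with 5 lower without spheroid 1. Dbp, Tef, Usp2 and Per3, outputs of the clock that peak together, were lower, with Dbp at 5.68 and 6.83 TPM in the spheroids and 55.6, 51.6 and 38.1 TPM in the livers (-3.06 ± 0.28, edgeR adjusted p = 0.00073). Arntl, which peaks opposite to them, was higher at 35.3 and 25.2 TPM against 1.68, 3.64 and 7.49 TPM (2.67 ± 0.50, edgeR adjusted p = 0.00754). The hour at which each sample was taken is not given in the sources used here, so time of day and group cannot be told apart for these genes.

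Iron genes were lower in 7 of 22 tested, with 6 kept and 0 higher. Hepcidin (Hamp), the hormone that limits iron uptake and is induced by BMP signals, was at 54.3 and 65.7 TPM in the spheroids and 1175, 970 and 922 TPM in the livers (-4.20 ± 0.23, edgeR adjusted p = 0.0001). The BMP targets Id3 and Smad7 were lower too, with Id3 at 64.1 and 72.8 TPM against 235, 225 and 206 TPM. Bmp2, a ligand made by liver endothelium, was at 1.71 and 2.04 TPM against 11.4, 11.7 and 8.53 TPM. The part of BMP signals in the values of Hamp, Id3 and Smad7 was not tested. The ferritins Fth1 and Ftl1 were kept, Fth1 at 1970 and 1798 TPM against 1796, 1819 and 1739 TPM.

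Among gains, targets of the tumour suppressor p53 stood out by their share. Of 18 tested, 12 were higher and 0 lower, against 8.24% higher over all genes, with a median log2 fold change of 1.81. Lists were chosen with earlier results of these data known, so this share describes the list and is no test of it. Members low in the livers, such as Eda2r, can pass the filter on low counts through the spheroids alone. Beside Cdkn1a, Mdm2, which degrades p53, was at 72 and 54.8 TPM in the spheroids and 21.7, 18.2 and 20.9 TPM in the livers (1.51 ± 0.16, edgeR adjusted p = 0.00116). Cyclin G1 (Ccng1) was at 221 and 219 TPM against 49.4, 44.3 and 46.2 TPM (2.12 ± 0.15, edgeR adjusted p = 0.00027). The stress hormone Gdf15 was at 40.6 and 57.4 TPM against 4.51, 5.7 and 6.05 TPM (3.05 ± 0.33, edgeR adjusted p = 0.00117). In all of these the spheroids stood clear of the livers. Trp53inp1, Aen, Plk2, Zmat3, Rrm2b, Psrc1, Btg2 and Eda2r were the other higher genes, while the death receptor Fas was kept at 68.8 and 81.3 TPM against 66.5, 45.7 and 84.6 TPM. Genes of the cell cycle gave little: of 22 tested, 4 were higher and 2 lower, and 11 further members, Mki67 and Top2a among them, had too few counts to be tested. The 4 were the inhibitors Cdkn1a and Cdkn1b and the ribonucleotide reductases Rrm1 and Rrm2. Cyclin D1 (Ccnd1) was at 15.5 and 8.81 TPM against 218, 26.1 and 27.5 TPM.

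Genes of the amino acid response driven by the transcription factor ATF4 were among those higher, and chaperones of the endoplasmic reticulum among those kept. Of 33 genes of both branches tested, 13 were higher, 14 kept and 0 lower (median 0.49). ATF4 induces genes that make or import amino acids when they run short. Asparagine synthetase (Asns) was at 367 and 424 TPM in the spheroids and 51.2, 64.6 and 43.9 TPM in the livers (2.78 ± 0.22, edgeR adjusted p = 0.00036). The serine synthesis genes Phgdh, Psat1 and Psph were all higher. Psat1 was at 146 and 116 TPM against 12.6, 3.64 and 4.65 TPM (4.12 ± 0.41, edgeR adjusted p = 0.00088). Phgdh was at 91.7 and 25.3 TPM against 3.64, 0.566 and 1.86 TPM, with spheroid 1 the higher of the spheroids. Gars, which charges glycine to its tRNA, was at 537 and 417 TPM against 113, 93.7 and 98.1 TPM. Chac1, which degrades glutathione, was at 151 and 88.5 TPM against 28.9, 11.2 and 23.4 TPM. The hormone Fgf21 was at 306 and 246 TPM against 89.9, 104 and 97.8 TPM. Slc7a11, the cystine importer, was higher at 10.1 and 2.72 TPM against 2.3, 1.21 and 0.71 TPM. Of the chaperone branch, Hspa5 (BiP) was kept at 760 and 838 TPM against 498, 451 and 573 TPM, and so were Hsp90b1, Xbp1, Pdia4, Dnajb9 and Herpud1. Mitochondrial Shmt2, a folate enzyme like Mthfd2 but not called, was at 198 and 287 TPM against 312, 383 and 348 TPM.

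The promoters of these genes are shown because members with the same short sequence moved apart. The letters TGATGNAA, part of the composite element that ATF4 binds, were searched on both strands in the promoter windows. They were in 2.36% of the windows of genes tested, in 4.26% of those of higher genes and in 2.13% of those of lower genes. In the group of ATF4 and chaperone genes they were in 9 of 31 windows (29%), which belong to 9 of the 29 genes with a window. Of these 9, Asns, Chac1, Slc7a11, Gars, Fgf21 and Trib3 were higher, Aars and Herpud1 were kept, and Nupr1 was not called, at 49.9 and 16.3 against 15.8, 12.6 and 13.6 TPM. Stretches of 6 of them follow, 5′ to 3′ on the gene's strand in GRCm38.p6 and ending before the start, with the match in capitals. The last, Herpud1, was kept, at 781 and 751 TPM in the spheroids and 643, 500 and 611 TPM in the livers.
Asns, chr6:7693210-7693272, minus strand: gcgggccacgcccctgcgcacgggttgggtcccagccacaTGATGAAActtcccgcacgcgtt
Chac1, chr2:119351009-119351086, plus strand: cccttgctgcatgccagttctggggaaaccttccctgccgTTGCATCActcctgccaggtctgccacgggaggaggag
Slc7a11, chr3:50443623-50443719, minus strand: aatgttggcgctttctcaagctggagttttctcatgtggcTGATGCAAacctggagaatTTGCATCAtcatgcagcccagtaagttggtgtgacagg
Gars, chr6:55037931-55038000, plus strand: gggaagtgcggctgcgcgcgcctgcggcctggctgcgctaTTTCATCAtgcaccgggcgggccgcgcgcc
Fgf21, chr7:45615592-45615669, minus strand: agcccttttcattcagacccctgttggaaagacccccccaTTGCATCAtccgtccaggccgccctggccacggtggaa
Herpud1, chr8:94386277-94386354, plus strand: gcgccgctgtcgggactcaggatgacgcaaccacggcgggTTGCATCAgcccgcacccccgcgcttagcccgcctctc
Slc7a11 has a pair of matches in opposite orientation, and the others have 1 each.

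Targets of the glucocorticoid receptor were higher in 11 of 23 tested, with 3 lower and 3 kept (median 0.75). Fkbp5, an immunophilin that the hormone induces in most tissues, was at 67.4 and 69.3 TPM in the spheroids and 28.1, 14.6 and 23.8 TPM in the livers (1.51 ± 0.24, edgeR adjusted p = 0.00452). The kinase Sgk1 was at 251 and 113 TPM against 60, 32.6 and 31.5 TPM, and Zbtb16 at 34.9 and 26.2 TPM against 8.33, 6.07 and 5.95 TPM. Both were higher, with every spheroid above every liver. Tat, the classic hepatic target, was at 769 and 1032 TPM against 1645, 1038 and 990 TPM and was not called, and Tsc22d3 was kept. Pck1, Sds and Hsd11b1 were the 3 that were lower. The receptor itself, Nr3c1, was at 19.9 and 22.4 TPM against 41, 36.8 and 36.9 TPM, a log2 fold change of -0.97 that the size limit left uncalled. Dexamethasone is in both media of the protocol, and its part in these values was not tested.

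Immediate early genes, which cells switch on within minutes of a stimulus, were higher in 10 of 23 tested and lower in 1, Klf2. Klf6 was at 201 and 216 TPM in the spheroids and 28.9, 7.34 and 8.6 TPM in the livers (3.70 ± 0.49, edgeR adjusted p = 0.00219). Fos was at 22.3 and 61.2 TPM against 4.15, 2.99 and 2.52 TPM, and Jun at 118 and 184 TPM against 38.9, 24.3 and 30.8 TPM. Both were higher than in liver and far lower than in the freshly isolated hepatocyte preparations, whose mean was 352 TPM for Fos and 370 TPM for Jun. Of 33 targets of the antioxidant factor NRF2, 13 were kept, 3 were higher (Hmox1, Pgd and Slc7a11) and 1 lower (Gclm). The kept and higher shares were close to those of all genes, 33.2% and 8.24%. Nqo1 was at 44.1 and 66.8 TPM against 70.9, 16.3 and 17 TPM. Without liver 1, 8 of 31 were higher, and without liver 2, 1 of 33. Of 19 genes that low oxygen induces, 5 were lower, 2 higher and 8 kept, and the number lower was 2 without liver 2, liver 3 or spheroid 2, and 3 without spheroid 1. Vegfa was lower at 11.2 and 8.06 TPM against 16.1, 21.5 and 18 TPM, and the 2 higher genes, Ddit4 and P4ha2, also answer to other signals.

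Genes of injury, the cytoskeleton and the mechanical sensor YAP were higher in 18 of 46 tested, with 3 lower and 5 kept (median 0.98). Tnfrsf12a, the receptor for the cytokine TWEAK, was at 803 and 686 TPM in the spheroids and 101, 51.2 and 66.4 TPM in the livers (3.23 ± 0.25, edgeR adjusted p = 0.00031). The tubulin Tubb2b was at 71.6 and 33.5 TPM against 5.07, 0.733 and 0.343 TPM (4.53 ± 0.70, edgeR adjusted p = 0.00386). Annexin A2 (Anxa2) was at 419 and 264 TPM against 124, 44.7 and 41.9 TPM, and keratin 8 (Krt8), of the hepatocyte's own filaments, at 1494 and 912 TPM against 612, 537 and 458 TPM. Galectin 3 (Lgals3) was at 229 and 181 TPM against 65.2, 21.2 and 24.8 TPM. All of these were called higher with no overlap of the groups. Cd24a, known from progenitor cells, was at 257 and 39.1 TPM against 46.1, 22.5 and 12 TPM; it was called higher, although spheroid 2 lay within the range of the livers. The YAP target Ccn1 was higher at 185 and 103 TPM against 18.6, 24.8 and 21.6 TPM, while Ccn2 was at 124 and 37.4 TPM against 51.4, 10.3 and 15.4 TPM and was not called. The stem cell marker Sox9 was at 12 and 1.95 TPM against 8.42, 9.02 and 5.42 TPM. Leaving out spheroid 1 moved the median of the group to 0.53 and leaving out spheroid 2 to 1.37. Of 12 fetal liver genes tested, 4 were higher, among them alpha-fetoprotein (Afp) at 24.2 and 23.9 TPM against 7.45, 9.41 and 3.33 TPM, and 2 were lower, with 2 higher without liver 3 and 1 without spheroid 2.

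Junctions between cells were kept more than most groups: 10 of 21 genes tested were kept, 3 were higher and 2 lower. The tight junction genes Ocln and Marveld2 were among those higher, with Ocln at 77.2 and 88.8 TPM in the spheroids and 43.9, 26.2 and 35.5 TPM in the livers (1.13 ± 0.22, edgeR adjusted p = 0.00906). Cldn2 and Pard3 were lower. E-cadherin (Cdh1) was at 37.7 and 3.17 TPM against 64.9, 38.9 and 39.9 TPM, with the spheroids far apart, and was not called, and N-cadherin (Cdh2) was kept at 40.1 and 39.4 TPM. Genes of the mitochondrial genome were kept in 9 of 11 tested, with none called. The limit on read starts can understate differences of such abundant genes, and 9 were kept with the limit undone too.

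The other cells of the liver differed in how much of their RNA the spheroids held. A marker with few reads passes the filter on low counts only through the livers if the spheroids lack it, so that for these lists the summed level of all members, tested or not, carries the comparison and the counts of called genes only describe it. Markers of Kupffer cells summed to 853 and 958 TPM in the spheroids and to 542, 824 and 1010 TPM in the livers. Of 12 such genes 11 were tested, and 1 was higher, 0 lower and 1 kept. Clec4f, which is specific to Kupffer cells, was at 77.2 and 110 TPM against 31.3, 101 and 123 TPM. The complement receptor Vsig4 was higher at 150 and 114 TPM against 44.1, 50.8 and 73.3 TPM (1.10 ± 0.25, edgeR adjusted p = 0.015), a call that was lost without liver 1 or without either spheroid. Cd5l was at 253 and 215 TPM against 116, 108 and 145 TPM, with no overlap but no call. C6, Slc40a1 and Il18bp of this list are also made by hepatocytes, so the sum does not measure Kupffer cells alone. In Vsig4 and Cd5l both spheroids stood above every liver, and in Clec4f they lay within the range of the livers. The summed level in the 3 hepatocyte preparations was 568, 702 and 644 TPM.

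Macrophage and dendritic cell markers summed to 1327 and 1012 TPM in the spheroids and 4096, 1495 and 1660 TPM in the livers, and 7 of 25 genes tested were lower and 1 higher. The fall was led by class II antigen presentation, the display of foreign peptides to T cells. H2-Ab1 was at 12.1 and 8.36 TPM against 389, 124 and 118 TPM (-4.46 ± 0.62, edgeR adjusted p = 0.00268), and H2-Aa, H2-Eb1 and Cd74 were lower to a like degree (-4.23 to -4.55). The other 3 lower genes were Aif1 (-2.76), Csf1r, the receptor for a macrophage growth factor (-1.18), and Fcer1g (-1.13). General macrophage genes varied, and the median of the list was -0.68: the lysosomal marker Cd68 was at 130 and 89.6 TPM against 78.2, 34.7 and 42 TPM and was not called, and Mpeg1, a pore-forming protein, and Tyrobp were kept. Cd14, the receptor for lipopolysaccharide, was higher at 75.9 and 31.2 TPM against 17.7, 4.48 and 4.19 TPM (2.47 ± 0.60, edgeR adjusted p = 0.0184). Without liver 1, 5 of 22 were lower and 3 higher.

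RNA of blood cells was near 0 in the spheroids. Lymphocyte and granulocyte markers summed to 5.13 and 6.52 TPM in the spheroids and to 883, 386 and 282 TPM in the livers, and 18 of the 28 genes were at 0 in both spheroids. Jchain, of plasma cells, was at 0 TPM in both against 32.4, 14 and 12.3 TPM. Nkg7, of killer cells, had 1 count in the spheroids and 91.3, 14.4 and 10.5 TPM in the livers. Only 7 of these genes had enough counts to be tested, through the livers, and their calls add nothing to the sums. Erythroid genes summed to 20.4 and 14.5 TPM against 618, 774 and 636 TPM. The globin Hbb-bs was at 10.6 and 6.53 TPM against 247, 291 and 206 TPM. Alas2, of heme synthesis in red cell precursors, was at 2.21 and 3.01 TPM against 150, 220 and 249 TPM, yet at 284, 313 and 305 TPM in the hepatocyte preparations, where Hbb-bs had a mean of 23.1 TPM, so that Alas2 did not follow the globins there.

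Sinusoidal endothelium, the perforated lining of the liver's capillaries, was lower in most markers: of 22 tested, 19 were lower and 0 higher or kept (median -1.99). The list summed to 212 and 191 TPM in the spheroids and 902, 784 and 961 TPM in the livers. Dnase1l3 was at 3.84 and 1.09 TPM against 55.6, 93.8 and 103 TPM (-5.22 ± 0.49, edgeR adjusted p = 0.00078). The scavenger receptor Stab2 was at 4.86 and 3.58 TPM against 9.94, 15.6 and 13.8 TPM, and the growth factor receptor Kdr at 2.86 and 1.69 TPM against 14.6, 16.5 and 18.5 TPM (-2.99 ± 0.27, edgeR adjusted p = 0.00073). Lyve1, also a marker of these cells, was at 18.4 and 19.4 TPM against 57.2, 19.4 and 18 TPM and was not called. Aass of this list is also a hepatocyte gene. Of 20 general endothelial genes tested, 10 were lower, 1 higher and 2 kept, with 6 lower without liver 2 and 5 without spheroid 2. The sums were 331 and 290 TPM against 471, 409 and 441 TPM, of which Ramp2 made up 141 to 144 TPM in each sample. Pecam1 was at 9.15 and 10.5 TPM against 15.3, 7.8 and 12.7 TPM, and VE-cadherin (Cdh5) was kept at 17.4 and 11.5 TPM. Ptprb was lower at 0.574 and 0.676 TPM against 18.7, 14.1 and 18.2 TPM (-4.87 ± 0.28, edgeR adjusted p = 0.0001). Emcn was higher at 12.2 and 15.2 TPM against 4.38, 4.69 and 6.83 TPM (1.25 ± 0.31, edgeR adjusted p = 0.0201).

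Stellate cells, which store vitamin A and lay down matrix after injury, were lower in 15 of 19 markers tested, with 0 higher and 0 kept (median -2.29, and -1.62 without liver 1). Without spheroid 2, 8 of 21 were lower. The summed level was 485 and 467 TPM in the spheroids and 1885, 948 and 1052 TPM in the livers, and decorin (Dcn) was the largest part of it, at 269 and 298 TPM against 919, 367 and 430 TPM. Reelin (Reln) was at 1.28 and 0.644 TPM against 12.5, 6.85 and 6 TPM (-3.25 ± 0.40, edgeR adjusted p = 0.00178), and Lrat, which esterifies vitamin A, at 3.98 and 1.05 TPM against 15.2, 12.2 and 10.6 TPM. Fibroblasts of the portal tract and the mesothelial cover of the liver were represented by 12 genes tested of 20, and Msln and Upk3b of the mesothelium were at 0 TPM in both spheroids. Msln was at 22.7, 3.33 and 14.7 TPM in the livers.

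Matrix genes were lower in 17 of 41 tested, higher in 4 and kept in 3. Without spheroid 1, 8 of 42 were lower, without spheroid 2, 4 of 42, and with limma-voom, 9 of 41. Fibrillar collagens were low, with Col1a1 at 1.39 and 1.72 TPM in the spheroids and 30.6, 3.86 and 5.93 TPM in the livers. Tgfbi was at 9.08 and 2.4 TPM against 189, 84.4 and 91.6 TPM (-4.51 ± 0.53, edgeR adjusted p = 0.00153). Fibronectin (Fn1), which hepatocytes make in quantity, was kept at 465 and 283 TPM against 265, 279 and 333 TPM. Among genes that were higher were Nid1 of basement membranes (101 and 74.1 against 22.7, 8.03 and 6 TPM), the macrophage elastase Mmp12 (41.2 and 66.6 against 6.74, 1.17 and 1 TPM) and the collagen cross-linker Lox, which was at 1.9 and 22.3 TPM against 0.724, 0.439 and 0.411 TPM and thus mostly in spheroid 2.

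Markers of cholangiocytes summed to 1372 and 1015 TPM in the spheroids and 1265, 844 and 871 TPM in the livers, but the sum rests on Cp, Spp1, Sorbs2 and Aqp1, which other cells also express. Defining markers differed among themselves. Epcam was near 0, at 0.373 and 0.789 TPM against 22.2, 10 and 6.79 TPM (-4.49 ± 0.81, edgeR adjusted p = 0.00672). Krt19 was at 3.28 and 0 TPM against 12.8, 6.83 and 5.33 TPM and was not called. Sox9, given above, was in spheroid 1 above every liver and in spheroid 2 below them. Osteopontin (Spp1) was at 350 and 92.3 TPM against 514, 298 and 263 TPM.

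**Figure D4:**
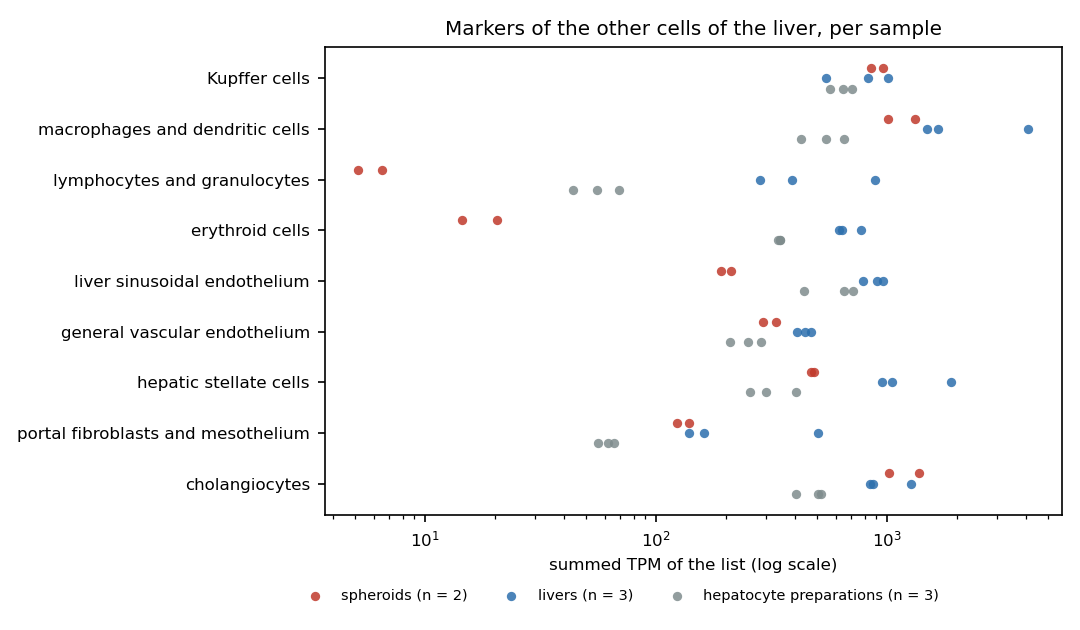
Summed TPM (log scale) of each list of markers of other liver cells, with 1 point for each of the 2 spheroid samples, 3 livers and 3 hepatocyte preparations. Spheroids are at 5.13 and 6.52 TPM for lymphocytes and granulocytes, where the livers are at 282 TPM or more. For the Kupffer cell list they are at 853 and 958 TPM, within the range of the livers. That sum also holds genes that hepatocytes make (C6, Slc40a1 and Il18bp).

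Chemokines and targets of NF-κB were higher in 7 of 25 tested, lower in 3 and kept in 1. The number higher was 2 without liver 2 or without spheroid 1 and 4 without liver 3. Ccl2, which recruits monocytes, was at 248 and 36.8 TPM in the spheroids and 12.2, 2.47 and 2.9 TPM in the livers (4.42 ± 0.82, edgeR adjusted p = 0.00723). Cxcl1, which recruits neutrophils, was at 92 and 46.4 TPM against 16, 21 and 16.2 TPM. Nfkb2, Relb and Tnfaip3, which the pathway itself induces, were higher as well. Cxcl12 and Cxcl9 were lower, and Il1b was at 0 TPM in both spheroids against 5.85, 3.32 and 3.8 TPM. Interferon-induced genes went the other way: of 32 tested, 15 were lower, 0 higher and 9 kept (median -0.99). Irf7 was at 13.1 and 10.9 TPM against 63, 54.5 and 89.1 TPM (-2.64 ± 0.27, edgeR adjusted p = 0.00101), and Gbp7 at 1.08 and 1.58 TPM against 10.1, 8.78 and 11.5 TPM (-3.03 ± 0.37, edgeR adjusted p = 0.00172). Stat2 and Irf1, which carry the signal, were kept.

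**Figure D5:**
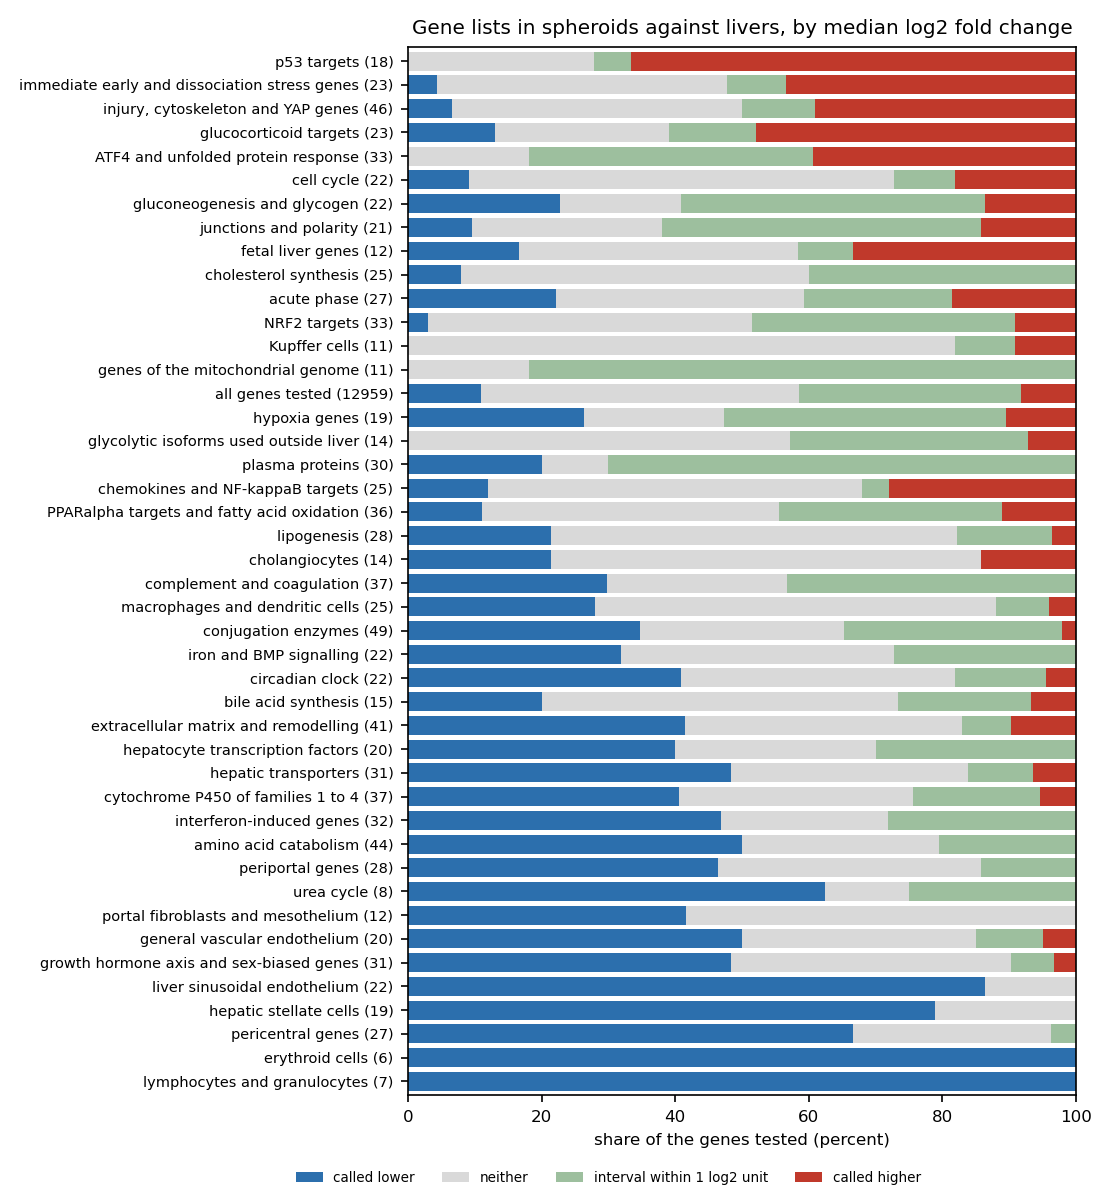
Share of the genes tested (number in brackets) that was higher, lower, kept or neither in spheroids against livers, with bars in order of the median log2 fold change. Bars are drawn for the 44 lists, save that of sex chromosome genes, and for all genes tested. Lists of blood, stellate and endothelial cells and of zonated genes lie at the low end, and p53 targets, with 12 of 18 genes higher, at the high end.

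Spheroids are built from hepatocyte preparations rather than from whole liver, so the same groups were read against 3 such preparations (12247 genes tested, of which 996, or 8.13%, were higher and 1116, or 9.11%, lower in the spheroids, and 4751, or 38.8%, kept). Both comparisons use the same spheroids, and their values are given side by side without being counted as independent. Hepatocyte groups that were low against liver were low here as well. Pericentral genes were lower in 18 of 26 (median -2.60), conjugation enzymes in 26 of 49, amino acid catabolism in 25 of 44 and interferon-induced genes in 14 of 32. Cebpa, at a mean of 153 TPM in the preparations, was lower by a log2 fold change of -2.70, and Hamp, at 891 TPM, by -4.21. Targets of p53 were higher in 9 of 18, ATF4 and chaperone genes in 14 of 33, and injury genes in 24 of 45. Immediate early genes turned round, with 11 of 23 lower and 2 higher than in the preparations. Clock genes, of which 9 were lower against liver, had 2 of 23 lower and Arntl at 0.45 without a call.

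Several groups of markers of other cells also read differently against the preparations than against liver. Here too a marker can pass the filter on low counts through a single group, so the summed levels carry the comparison. Stellate markers, lower than liver in 15 of 19, had 1 lower and 0 higher of 15 tested against the preparations, with a median of 0.36. Their sums were 485 and 467 TPM in the spheroids and 402, 254 and 299 TPM in the preparations. Macrophage markers summed to 1327 and 1012 TPM in the spheroids and to 649, 423 and 543 TPM in the preparations. Of these markers, 7 of 25 were lower against liver, while 9 of 22 were higher and 4 lower against the preparations. C1qb was at a mean of 66.1 TPM in the preparations, against 194 and 152 TPM in the spheroids and 352, 192 and 220 TPM in the livers. Sinusoidal endothelium was lower in 7 of 20 (median -0.92), with sums of 212 and 191 TPM in the spheroids and 711, 436 and 651 TPM in the preparations. Plasma proteins had 13 of 30 kept and 7 lower, against 21 kept and 6 lower beside liver, and their median was -0.52. Scaling matters more in this comparison: with library sizes alone 1531 genes were higher and 808 lower, a share of higher calls of 65.5% instead of 47.2%, and the median of all genes was 0.265 instead of 0.007.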

How the data were processed

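RNA of all 16 samples was sequenced with Smart-seq3 by the authors, in 3 technical libraries per sample. Per the labels and the study's methods, reads were aligned with TopHat2 to mm10, duplicates were removed, and featureCounts 1.4.6-p5 counted reads per gene without regard to strand, giving reads in overlapping exons to each gene. The deposited counts are raw whole numbers, summed by the authors over the 3 libraries, and were found equal to the sums of the library files. The deposited TPM values are counts divided by exon length and scaled to the same total in each sample. A deposited TPM table corrected for iris RNA was not used here.

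Spheroids were compared with livers, and with hepatocyte preparations, by edgeR 4.0.16 (filterByExpr, TMM scaling, quasi-likelihood test, R 4.3.3), with Benjamini-Hochberg adjustment. Only the groups compared entered a fit. Spike-in rows (92) were left out. An exact permutation test of 2 against 3 samples has 10 splits and cannot reach p under 0.05, so no such test was run. Libraries of a sample were not treated as replicates: the variance between samples of a group was 11.8 to 13.7 times sampling noise, and that between libraries 1.29 to 2.84 times. The labels do not say how many animals the samples came from, so p-values measure the spread between these samples, which may be technical. Simulated data of 12888 genes were made from the spheroid and liver means. In them edgeR called 98 of 100 genes changed by 3-fold, 100 of 100 changed by 8-fold and 5 unchanged genes. Every simulated gene was given the same dispersion, and only genes above a set mean count were changed, so these counts depend on those settings. They hold for the simulated data only. Recovery of real genes that vary as widely between samples as Dpt and Cfd (SE of 2.31 and 2.72) was not tested.

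Genes named were the 10 highest and 10 lowest called genes without overlap of the groups and with a mean of 20 CPM or more in the higher group, the 10 most abundant genes of each group without mitochondrial genes, and members of the lists. Members and lists were chosen with earlier results of these data known. For genes at 0 in both spheroids a floor of 3 counts over the group gives a bound, and counting intervals cover counting error only. Symbols followed GENCODE M21, and promoter sequences RefSeq. The alternatives tried were DESeq2 1.42.0, limma-voom (limma 3.58.1), other scalings, filters and fold limits, 1 library per sample, all groups in 1 fit, the replicate number as a block, the limit of 2 read starts per base undone, and leaving out each sample. Results of some genes are not reported here.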

Additional observations from a re-analysis of the deposited data

How the results depend on the processing

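Under every alternative the counts of genes called lower against livers and against hepatocyte preparations stayed within 1.5 times their values. So did the count of genes kept against livers, which was not taken with DESeq2 or with no fold change limit. Genes called higher against livers, 1068, ranged from 701 to 1236 when 1 sample was left out, with 701 without spheroid 2, and numbered 1950 with no fold change limit. Genes called higher against hepatocyte preparations, 996, numbered 1531 with library sizes alone and 1526 with no fold change limit. A fit without a spheroid leaves 1 sample in that arm, which is assumed to vary like the livers. Of 310 genes followed, 216 were called, all 216 kept their direction under every alternative, and 140 were called under every one. Among genes not called, the log2 fold change of Cyp2b9 turned from -2.07 to 6.65 and that of Cyp2a4 from -0.45 to 5.78 without liver 1, and they were as low as -2.66 and -1.04 without liver 3. Calls lost by leaving out 1 sample numbered 48 without liver 2, 45 without spheroid 1, 37 without spheroid 2, 25 without liver 3 and 3 without liver 1 (Ugp2, Pdk4 and Vsig4). Limma-voom lost 26, among them Sprr1a, Dpt, Cfd, Cyp2c54, Cyp4a12b and Ighm. Of 29 list medians over 0.5 in size, 28 kept their sign, and that of cholangiocytes, -0.57, was 0.04 without liver 1, 0.14 with at least 10 counts in every sample and 0.21 with library a of each sample alone. The cause was not tested. With the replicate number as a block, 1040 genes were higher and 1473 lower against livers; the labels do not say that a number marks a shared animal, and the deviations of samples 1 and 2 correlated at 0.142 across genes. Depth, at 3247327 counts or more in spheroids and livers, left 123 of the 1084 list symbols untested.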
